A study of Homo sapiens with 38 samples.

Results

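Small structural RNAs made up a large part of the RNA measured in the nuclear and cytoplasmic fractions of HCT116 cells, a human colorectal carcinoma line. The 9 genes described here were chosen by name: RN7SL1 and RN7SL2 (the 7SL RNA of the signal recognition particle), RN7SK (7SK RNA), RPPH1 (the RNA of RNase P), RMRP (the RNA of RNase MRP), TERC (the RNA of telomerase), VTRNA1-1 (a vault RNA) and RNY1 and RNY3 (Y RNAs). All 9 were found among the 58425 genes with a matched transcript. They were followed in wild-type cells and in 4 gene-edited lines, with the genotypes AGO1-/-, AGO2-/-, AGO1-/- with AGO2-/- (AGO1/2 knockout) and AGO1-/- with AGO2-/- and AGO3-/- (AGO1/2/3 knockout). The edited genes encode Argonaute proteins, which carry microRNAs to their targets. Each genotype was 1 line and gave 3 nuclear and 3 cytoplasmic libraries, each from another culture passage, which makes 10 groups and 30 libraries. Wild-type cultures were at passages 27 to 29 and the edited lines at passages 6 to 14, so genotype, clone and passage cannot be told apart. In RNA from whole cultures, fewer cells and less RNA per cell cannot be told apart either.

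These RNAs work as parts of RNA and protein machines. 7SL RNA is the scaffold of the signal recognition particle, which brings ribosomes making secreted or membrane proteins to the endoplasmic reticulum. 7SK RNA holds the elongation kinase P-TEFb (CDK9 with a cyclin T) in an inactive complex in the nucleus, together with HEXIM1, LARP7 and MEPCE. RNase P trims the leader of transfer RNA precursors, and RNase MRP, which shares most of its proteins, cuts the ribosomal RNA precursor in the nucleolus. TERC carries the template that telomerase copies into telomere repeats. Vault RNA sits in the vault particle, and Y RNAs are bound by the Ro60 and La proteins. RNA polymerase III makes all of them except TERC, which RNA polymerase II makes.

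Both 7SL genes lie on chromosome 14, and their RNAs are nearly the same, which bears on how reads can be divided between them. RN7SL1 (ENSG00000276168.1) is on the plus strand in GRCh38, within an intron of RPS29, which lies on the opposite strand. RN7SL2 (ENSG00000274012.1) is on the minus strand, inside an exon of the long noncoding RNA gene ENSG00000282885. The 2 RNAs, 299 and 300 bases long, are 98.3% identical. Of the 225 windows of 75 bases in RN7SL1, 131 (58.2%) occur unchanged in RN7SL2, so the division of reads between the genes is uncertain and their sum is given as well.

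RMRP and RPPH1 are related ribozyme RNAs with no long run of letters in common. RMRP (ENSG00000277027.1) is at chr9:35657754-35658017 on the minus strand, and RPPH1 (ENSG00000277209.1) at chr14:20343075-20343407 on the minus strand, where an exon of the long noncoding RNA gene ENSG00000259001 covers all of its 333 bases on the same strand. RMRP is shown whole and RPPH1 from base 116 to base 235 (chr14:20343173-20343292), as annotated on GRCh38 in GENCODE release 44, with T for U and with the longest run that they share in capitals.
RMRP: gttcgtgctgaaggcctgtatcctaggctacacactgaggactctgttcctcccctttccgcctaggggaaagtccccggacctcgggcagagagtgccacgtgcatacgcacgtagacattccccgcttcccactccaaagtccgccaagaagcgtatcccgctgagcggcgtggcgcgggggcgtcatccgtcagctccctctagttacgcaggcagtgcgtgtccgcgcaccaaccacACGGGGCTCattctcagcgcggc
RPPH1: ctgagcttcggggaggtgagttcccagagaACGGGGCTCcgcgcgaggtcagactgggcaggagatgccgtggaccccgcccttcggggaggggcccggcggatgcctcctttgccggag
That run is 9 bases long, and an alignment pairs 157 identical bases, 59.5% of RMRP. No window of 75 bases is common to the RNAs, so their reads can be told apart.

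RN7SK (ENSG00000283293.1) is at chr6:52995621-52995948 on the plus strand, and TERC (ENSG00000270141.3) at chr3:169764520-169765060 on the minus strand. Only the start of each is shown, and that of RN7SK holds the hairpin that HEXIM1 recognises. Capitals mark every GATC in this stretch of RN7SK, within that hairpin or not, and the telomere template letters CTAACCC of TERC.
RN7SK: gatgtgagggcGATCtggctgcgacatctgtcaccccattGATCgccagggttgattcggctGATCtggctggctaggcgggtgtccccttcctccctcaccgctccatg
TERC: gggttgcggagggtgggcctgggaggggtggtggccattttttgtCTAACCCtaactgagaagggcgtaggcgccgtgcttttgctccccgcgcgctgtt
GATC stands at bases 12, 41 and 63 of RN7SK, and CTAACCC occurs once in TERC, at base 46. The tables hold a further record, Telomerase-vert (ENSG00000277925.1), that covers 438 bases of TERC on the same strand. It received 68.3% to 75% of the reads of both records together in nuclear libraries and 62.6% to 72.6% in cytoplasmic libraries, so TERC values hold the smaller part of the telomerase RNA reads. The record ENSG00000259001 held 4.38% to 7.81% of its sum with RPPH1 over the 30 libraries.

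The vault and Y RNAs are the shortest members. VTRNA1-1 (ENSG00000199990.1) is at chr5:140711275-140711373 on the plus strand, RNY1 (ENSG00000201098.1) at chr7:148987136-148987248 on the minus strand and RNY3 (ENSG00000202354.1) on the plus strand of chromosome 7. VTRNA1-1 and RNY1 are shown whole, with the closing run of T, the letters at which RNA polymerase III stops, in capitals.
VTRNA1-1: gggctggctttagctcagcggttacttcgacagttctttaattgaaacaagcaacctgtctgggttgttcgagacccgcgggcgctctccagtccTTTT
RNY1: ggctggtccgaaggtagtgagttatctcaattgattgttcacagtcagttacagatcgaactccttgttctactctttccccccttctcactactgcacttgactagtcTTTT
Both end in 4 T.

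Libraries held 20431557 to 54097984 estimated reads in nuclear RNA and 39476205 to 79731793 in cytoplasmic RNA, and the 6 wild-type libraries were the shallowest of each fraction. The fractions were checked with MALAT1 and NEAT1, long noncoding RNAs of the nucleus, and with the mRNAs of GAPDH and ACTB. In wild-type cells MALAT1 was 14.2-fold and NEAT1 14.8-fold higher in nuclear RNA, and GAPDH was 2.29-fold lower. ACTB went the other way from GAPDH, 1.59-fold higher in wild-type nuclear RNA (edgeR adjusted p = 0.000195). It was also called higher there in the AGO1, AGO2, AGO1/2 and the AGO1/2/3 knockouts (log2 0.65, 0.41, 1.16 and 1.08). The nuclear excess of MALAT1 was smaller in the edited lines, with log2 ratios of 2.80, 2.75, 2.12 and 2.48 in the AGO1, AGO2, AGO1/2 and the AGO1/2/3 knockouts against 3.83 in wild type. AGO1 mRNA fell in every line labelled as lacking it, by 1.25 to 1.90 on the log2 scale in nuclear RNA. AGO2 mRNA fell by 0.47 in nuclei of the AGO2 and by 0.44 in those of the AGO1/2/3 knockout, but was not called in the cytoplasm of that line (0.11, edgeR adjusted p = 0.264). AGO3 mRNA was called lower in nuclei of all 4 edited lines (-0.35, -0.19, -0.28 and -0.30) and higher in the cytoplasm of all but the AGO1 knockout (0.28, 0.37 and 0.34), so it does not check its label. AGO2 mRNA did not follow its label in the AGO1/2 knockout, where it was not called in nuclear RNA (-0.18) and was higher in the cytoplasm (0.31), so genotypes are named here as labelled. The epithelial markers EPCAM, KRT8, KRT18 and KRT19 were detected in every library, and EPCAM fell from a mean of 142 to 44.1 and CDH1 from 12.3 to 1.12 TPM between wild-type and AGO1/2 knockout cytoplasm. There KRT8 went from 446 to 337, KRT18 from 407 to 309, KRT19 from 223 to 213 and CDX2 from 5.20 to 3.20 TPM. In nuclei of that line the keratins were higher than in wild type (KRT8 498 to 1212, KRT18 369 to 826, KRT19 226 to 574 TPM). EPCAM (98.1 to 62.7), CDH1 (21.3 to 4.15) and CDX2 (3.52 to 3.27 TPM) were lower there. PTPRC and CD3E, which mark leukocytes, and DCN, of fibroblasts, were at or near 0 TPM, while the collagen gene COL1A1 had group means of 3.85 to 5.47 TPM in nuclear and 0.858 to 1.47 TPM in cytoplasmic RNA.

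TPM, a level per transcript length, divides the reads of a transcript by its effective length and scales each library to the same total. By this measure the 9 RNAs together took a large share of every library. Their share of all TPM was 37.1 ± 1.15% (SD, n = 3) in nuclear RNA of wild-type cells, 41.7 ± 1.84% in the AGO1, 44 ± 1.56% in the AGO2, 45.1 ± 0.864% in the AGO1/2 and 45.5 ± 1.18% in the AGO1/2/3 knockout. In cytoplasmic RNA the shares were 48.9 ± 3.04%, 53.2 ± 0.817%, 55.4 ± 0.780%, 54.9 ± 1.70% and 56.4 ± 1.84% in the same order. The lowest library of every edited line lay above the highest wild-type library in nuclear RNA, and the same held in the cytoplasm except in the AGO1 knockout, whose lowest library (52.2%) lay beside the highest of wild type (52.3%). Counted as reads, the same RNAs were 6.02% of nuclear and 9.07% of cytoplasmic wild-type reads and at most 12.1% on average in any group. The effective lengths behind the TPM were a median of 125 bases for RN7SL1 against its 299, 99.2 for RMRP against 264 and 16.1 for VTRNA1-1 against 99, so a read of a short RNA weighs more in TPM.

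Which RNA led depended on the fraction and the genotype. Among genes with a matched transcript, RMRP had the highest TPM in the median nuclear library, ahead of RN7SL1, RN7SL2 and RN7SK, while RN7SL2, RN7SL1, RN7SK and RPPH1 were the first 4 in the median cytoplasmic library, where RMRP had a median rank of 7. Unmatched transcripts, which were not ranked, held 6.89% (an AGO1/2 library) to 16.0% (an AGO1 library) of nuclear TPM and 1.31% to 1.78% of cytoplasmic TPM. RMRP took 17.3 ± 1.81% of nuclear TPM in wild type, 21.4 ± 2.13% in the AGO1 and 15.9 ± 0.957% in the AGO2 knockout, but 8.21 ± 0.848% in the AGO1/2 and 11.3 ± 0.0884% in the AGO1/2/3 knockout. In these last 2 lines RN7SL1 (17.2% and 15.8%) and RN7SL2 (15.2% and 13.2%) each stood above it. The 7SL genes together went from 15.5 ± 0.488% in wild type to 16.8 ± 0.869%, 23.6 ± 1.27%, 32.3 ± 0.413% and 29.0 ± 1.32% in the AGO1, AGO2, AGO1/2 and the AGO1/2/3 knockouts. In cytoplasmic RNA their share was 39.2 ± 2.83% in wild type and 41.3 ± 2.99% to 44.7 ± 1.91% in the edited lines. RN7SK held 3.18% to 4.79% of nuclear TPM by group and 5.86% to 10.2% of cytoplasmic TPM. RPPH1 held 0.227% to 0.375% and 2.36% to 2.58%. The other members were each below 0.13% of TPM in every group, and the median ranks of RNY1, RNY3 and TERC were 447, 620 and 324 in nuclear RNA and 73, 141 and 2354 in cytoplasmic RNA.

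**Figure D1:**
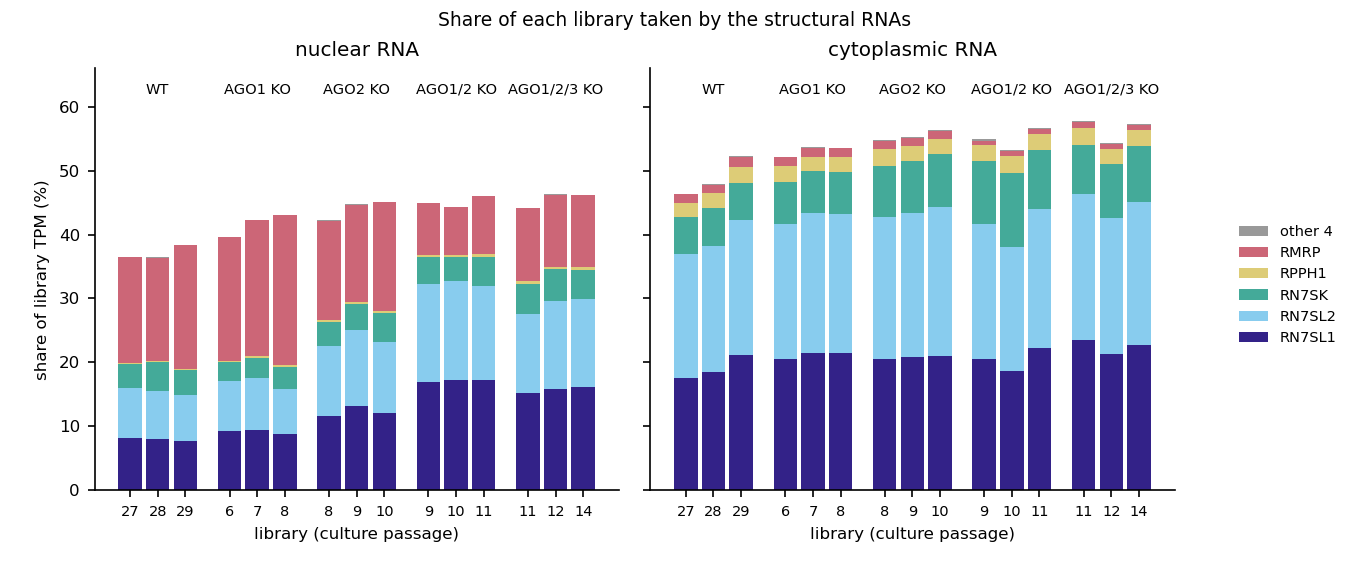
Share of each library's TPM (percent, vertical axis from 0) taken by the 9 RNAs, 1 stacked bar for each library, with the 15 nuclear and the 15 cytoplasmic libraries apart and grouped by genotype. The RMRP part is wide in nuclear bars and narrow in cytoplasmic ones, and the 7SL part widens from 15.5% in wild-type to 32.3% in AGO1/2 knockout nuclei.

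Nuclear and cytoplasmic RNA were compared within each genotype with edgeR's quasi-likelihood test on estimated reads, fitted over all genes and all 30 libraries with calls where the p adjusted by Benjamini-Hochberg was below 0.05. Levels are given as CPM, read counts put on 1 library size for all 30 libraries with TMM factors (edgeR's trimmed mean of ratios), and an increase means a higher part of the fraction's RNA, not more molecules per cell. In each of the 5 genotypes RMRP and TERC were higher in nuclear RNA and the 2 7SL genes, RN7SK, RPPH1, RNY1 and RNY3 were lower, 8 of the 8 members tested. Among all 20104 genes, 39.6% were called higher in wild-type nuclear RNA and 37.3% lower, 40.0% and 34.5% in the AGO1, 39.8% and 33.6% in the AGO2, 36.9% and 31.6% in the AGO1/2, and 36.1% and 34.1% in the AGO1/2/3 knockout.

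RMRP had 17824, 17439 and 22405 CPM in the nuclear and 2029, 2034 and 2723 CPM in the cytoplasmic wild-type libraries of passages 27, 28 and 29. The groups lay far apart, and RMRP was 8.50-fold higher in the nucleus (log2 3.09 ± 0.13 SE, edgeR adjusted p = 7.47e-17). TERC was 4.76-fold higher (log2 2.25 ± 0.13 SE, edgeR adjusted p = 2.67e-14), at 57.3, 67.3 and 79.0 against 15.0, 11.7 and 16.1 CPM. These are RNAs whose known work is in the nucleolus and at telomeres. RPPH1, the relative of RMRP, was distributed in the opposite way, with 380, 396 and 382 CPM in nuclear and 5151, 6012 and 6489 in cytoplasmic libraries, 15.2-fold lower in the nucleus (log2 -3.93 ± 0.092 SE, edgeR adjusted p = 2.45e-21). RN7SL1 had 11148, 10949 and 11261 CPM against 34403, 37782 and 45533, 3.53-fold lower in the nucleus (log2 -1.82 ± 0.086 SE, edgeR adjusted p = 5.51e-16), and RN7SL2 was 3.92-fold lower (log2 -1.97 ± 0.078 SE, edgeR adjusted p = 1.89e-17). The cytoplasm is where the signal recognition particle acts. RN7SK, known as a nuclear RNA, was 2.14-fold lower in nuclear than in cytoplasmic RNA (log2 -1.10 ± 0.12 SE, edgeR adjusted p = 3.97e-09), with 6139, 7215 and 6585 against 13651, 14202 and 14778 CPM. MALAT1 and NEAT1 showed the nuclear excess given above in the same libraries, where ACTB mRNA was also higher in nuclear RNA. The paper states that its harsh lysis broke a small part of the nuclei, so some nuclear RNA may be found in the cytoplasmic fraction. The part of this in the ratios of RN7SK, RPPH1 and the other members was not tested. RNY1 was 8.71-fold and RNY3 5.91-fold lower in the nucleus (log2 -3.12 ± 0.24 SE, edgeR adjusted p = 7.48e-12 and log2 -2.56 ± 0.23 SE, adjusted p = 1.57e-10), with at most 3.29 nuclear CPM for RNY1 in wild type.

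The direction held for all 8 members in each genotype, and the size of the ratio moved for some. The log2 ratio of nuclear to cytoplasmic RN7SL1 was -1.82 in wild type and -1.66, -1.28, -1.29 and -1.15 in the AGO1, AGO2, AGO1/2 and the AGO1/2/3 knockouts, so the deficit in the nucleus was smallest in the AGO1/2/3 knockout. For RN7SK it was -1.10 in wild type and -2.33 in the AGO1/2 knockout, with -1.44 to -1.49 in the other edited lines. RMRP had log2 ratios of 3.09, 3.53, 3.20, 2.57 and 3.18 in that order of genotypes, lowest in the AGO1/2 and highest in the AGO1 knockout. By limma on log2(TPM + 1), at an adjusted p of 0.05, the test did not call RN7SL1 and RN7SL2 in the AGO1/2 knockout (-0.25, adjusted p = 0.385, and -0.45, adjusted p = 0.116) or RN7SL1 in the AGO1/2/3 knockout (-0.51, adjusted p = 0.0897). With reads of the overlapping Telomerase-vert record added, the wild-type log2 ratio of TERC was 2.59.

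**Figure D2:**
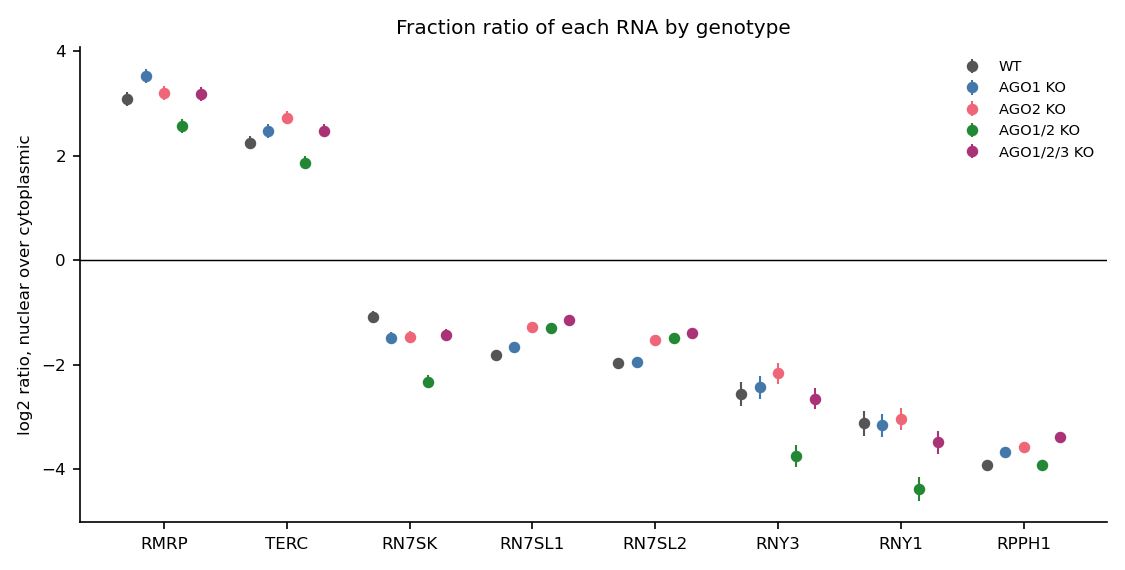
Log2 ratio of nuclear to cytoplasmic RNA (vertical axis, TMM-scaled reads) for the 8 tested RNAs in each of the 5 genotypes, with bars of 1 SE and filled points where the test called a difference. RMRP and TERC lie above 0 and the other 6 below 0 in every genotype, and RN7SK and the Y RNAs lie lowest in the AGO1/2 knockout.

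The edited lines were then compared with wild type within a fraction, to ask what changed in nuclei and in cytoplasm of cells that lack 1 or more of the Argonaute genes. All 4 comparisons of a fraction share its 3 wild-type libraries, so they are not independent of each other. CPM are from here on scaled within a fraction. In nuclear RNA, 8 members passed the filter on low counts, and VTRNA1-1 did not. In the AGO1 knockout 5 members rose and 0 fell, where 14.3% of all 18919 tested genes rose and 15.6% fell. In the AGO2 knockout 6 rose and 0 fell (background 20.2% and 19.9%). In the AGO1/2 knockout 3 rose and 2 fell (background 32.9% and 34.7%), and in the AGO1/2/3 knockout 5 rose and 1 fell (background 29.1% and 29.5%). RN7SL1, RN7SL2 and RPPH1 were called higher in each of the 4 lines. On log2(TPM + 1), limma called 0, 3, 5 and 5 of the 8 members, among 32.4%, 36.9%, 61.3% and 53.8% of all genes. Of the genes so called, 5.90%, 9.71% and 26.5% were higher in the AGO1, AGO2 and AGO1/2/3 knockouts, against 47.8%, 50.3% and 49.7% of the edgeR calls.

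Other RNAs moved in the same nuclear libraries. MALAT1 was lower in the AGO1, AGO2, AGO1/2 and the AGO1/2/3 knockouts (-0.53, -0.49, -1.18 and -0.95 on the log2 scale) and GAPDH mRNA higher (0.60, 0.60, 1.11 and 0.91), and all 8 values were called. Of the 13 mitochondrial mRNAs, which mark cytoplasm left on nuclei, 0 were higher in any line and 0, 0, 4 and 1 were lower. All genes with a symbol that starts with MT-, a wider set, held 0.349% to 0.790% of nuclear TPM against 6.98% to 15.8% in the cytoplasm. Wild-type libraries were also the shallowest. The part of these in the members' changes was not tested.

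In cytoplasmic RNA all 9 members were tested, VTRNA1-1 on 3 to 23 reads a library. In the AGO1 knockout edgeR called 0 of 9, with an unadjusted p under 0.05 for 3 of them (RN7SL1, RN7SL2 and RN7SK), and DESeq2 called these 3 (among 15.8% of all genes). Of all 17605 genes 4.28% rose and 8.13% fell. In the AGO2 knockout 5 members rose and 0 fell (background 7.07% and 9.0%). In the AGO1/2 knockout 7 rose and 2 fell (background 23.9% and 25.4%), 1 of the 7 being VTRNA1-1, which passed the filter through its higher groups, and in the AGO1/2/3 knockout 6 rose and 2 fell (background 18.6% and 20.0%). On log2(TPM + 1), limma called 0, 1, 6 and 3 of the 9, among 18.4%, 28.9%, 57.6% and 45.9% of all genes. Of the genes so called, 7.34%, 5.99%, 13.4% and 17.7% were higher, against 34.5%, 44%, 48.5% and 48.2% of the edgeR calls. The members themselves make up much of the TPM total, and the part of this in the limma calls was not tested. The cytoplasmic wild-type library of passage 29 stood above the other wild-type libraries for RN7SL1, RN7SL2, RPPH1 and RMRP, and without it edgeR called 3 members in the AGO1 knockout (RN7SL1 0.41, RN7SL2 0.33 and RMRP 0.27).

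Whether a knockout effect differed between the fractions was tested as an interaction over the 30 libraries. For the AGO1 knockout 0 of 8 members were called (3 with an unadjusted p under 0.05), among 0.662% of all genes. The count was 2 for the AGO2 (background 5.76%), 6 for the AGO1/2 (background 36.5%) and 3 for the AGO1/2/3 knockout (background 22.7%). DESeq2 called 0 for the AGO1 knockout as well (background 2.52%). With the passage as a replicate block, edgeR also called RN7SK in the AGO2 (-0.45) and TERC in the AGO1/2 knockout (-0.39). That fit called 2356 of 18685 genes for the AGO2 knockout, against 1158 of 20104 in the fit without a block.

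**Figure D3:**
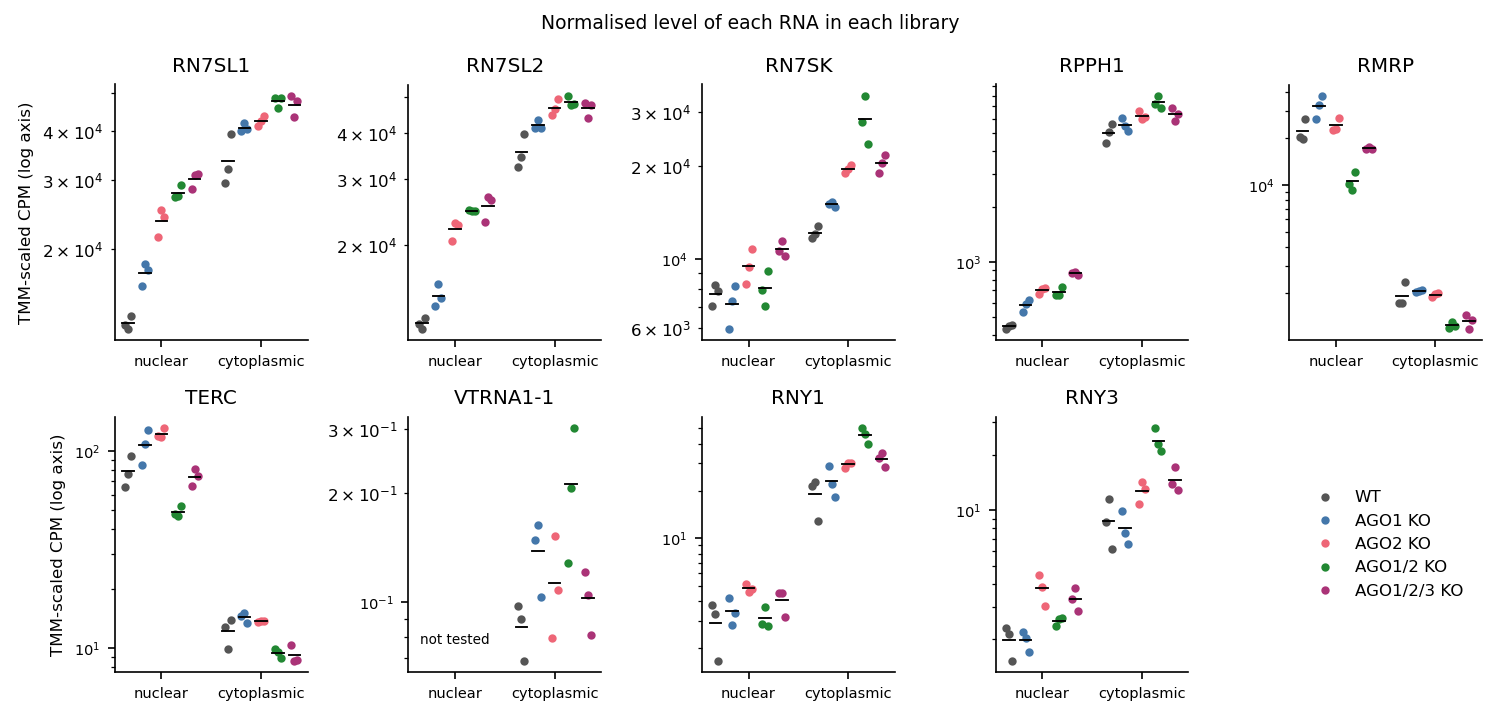
CPM of each RNA in each library (log axis, scaled within a fraction), nuclear and cytoplasmic libraries apart, 3 points and a black bar at their mean for each genotype. Nuclear RN7SL1 points separate wild type from each edited line, nuclear RMRP and TERC are lowest in the AGO1/2 knockout, and cytoplasmic RNY1 and RNY3 are highest there.

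**Figure D4:**
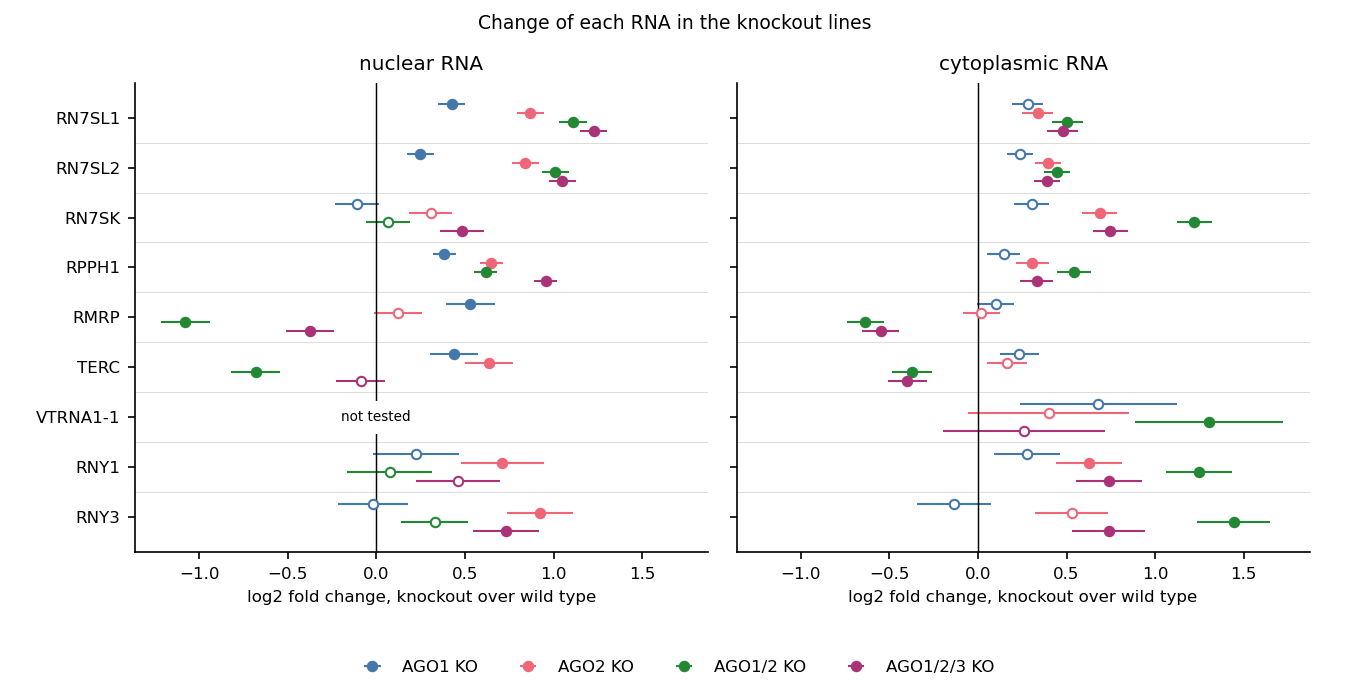
Log2 difference from wild type (horizontal axis) of each RNA in the 4 edited lines, nuclear and cytoplasmic RNA apart, with bars of 1 SE and filled points where edgeR called the difference. Filled points lie right of 0 for RN7SL1, RN7SL2 and RPPH1 in all 4 nuclear comparisons and left of 0 for RMRP in the AGO1/2 and AGO1/2/3 knockouts of both fractions.

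7SL RNA rose in the nuclei of every edited line. RN7SL1 had 12758, 12467 and 13430 CPM in wild-type nuclei, 16015, 18301 and 17570 in the AGO1 and 21390, 25077 and 24163 in the AGO2 knockout. It had 27145, 27203 and 29076 CPM in the AGO1/2 and 28450, 30926 and 31017 in the AGO1/2/3 knockout. No library of an edited line overlapped wild type, and the only neighbours that overlapped were the AGO1/2 and AGO1/2/3 knockouts at the top. The rise was 1.34-fold in the AGO1 (log2 0.42 ± 0.076 SE, edgeR adjusted p = 0.000802), 1.83-fold in the AGO2 (log2 0.87 ± 0.076 SE, edgeR adjusted p = 1.3e-06), 2.16-fold in the AGO1/2 (log2 1.11 ± 0.077 SE, edgeR adjusted p = 8.98e-09) and 2.34-fold in the AGO1/2/3 knockout (log2 1.23 ± 0.077 SE, edgeR adjusted p = 5.56e-09). RN7SL2 went from 12226, 11885 and 12692 CPM in wild type to 24834, 24589 and 24674 in the AGO1/2 and 22992, 26822 and 26390 in the AGO1/2/3 knockout. Its log2 differences were 0.25, 0.84, 1.01 and 1.05 (edgeR adjusted p = 0.0216, 1.61e-06, 2.16e-08 and 2.29e-08). The AGO1 call of RN7SL2 was lost without the AGO1 library of passage 7 (0.20, edgeR adjusted p = 0.0977). The ratio of RN7SL1 to RN7SL2 reads was 1.05 ± 0.00739 (SD, n = 3) in wild-type nuclei and 1.19 ± 0.0342, 1.07 ± 0.0265, 1.13 ± 0.0459 and 1.19 ± 0.0437 in the AGO1, AGO2, AGO1/2 and the AGO1/2/3 knockouts. By limma on log2(TPM + 1), the AGO1 and AGO2 differences of neither gene were called (RN7SL1 0.20 and 0.62, adjusted p = 0.661 and 0.139; RN7SL2 0.025 and 0.59, adjusted p = 0.961 and 0.141).

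In the cytoplasm 7SL RNA rose in 3 edited lines. RN7SL1 had 29426, 32051 and 39396 CPM in wild type, 40060, 42047 and 40473 in the AGO1, 41160, 42491 and 43737 in the AGO2, 48604, 45770 and 48723 in the AGO1/2 and 49222, 43470 and 47798 in the AGO1/2/3 knockout. The wild-type libraries spread over a wider range than any other group, and the edited lines were all above them. RN7SL1 rose 1.26-fold in the AGO2 (log2 0.34 ± 0.089 SE, edgeR adjusted p = 0.0189), 1.42-fold in the AGO1/2 (log2 0.50 ± 0.089 SE, edgeR adjusted p = 0.000288) and 1.39-fold in the AGO1/2/3 knockout (log2 0.48 ± 0.089 SE, edgeR adjusted p = 0.00066). The AGO1 difference was 0.28 (edgeR adjusted p = 0.0527). For RN7SL2 the log2 differences were 0.24 (edgeR adjusted p = 0.0509), 0.39 (0.00231), 0.45 (0.000171) and 0.39 (0.00082). The AGO2 call of RN7SL1 was lost without the AGO2 library of passage 10 (0.32) or the wild-type library of passage 27 (0.25) or 28 (0.30), and in the fit of those groups alone (0.33, edgeR adjusted p = 0.106). None of the cytoplasmic 7SL differences was called by limma on log2(TPM + 1), with values from 0.044 (RN7SL2, AGO1/2) to 0.24 (RN7SL1, AGO1/2/3) among the called lines. The nuclear effect exceeded the cytoplasmic one in 3 lines by the interaction test, but neither AGO2 call held in the fit of the groups compared alone. For RN7SL1 the difference was 0.54 in the AGO2 (edgeR adjusted p = 0.00823), 0.53 in the AGO1/2 (0.00094) and 0.67 in the AGO1/2/3 knockout (0.000217), and for RN7SL2 it was 0.45, 0.48 and 0.58 (edgeR adjusted p = 0.013, 0.000826 and 0.000326). GAPDH mRNA had interaction values of 0.39, 1.0 and 0.59 in these lines.

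7SK RNA rose in the cytoplasm of 3 edited lines, and in nuclei edgeR called the AGO1/2/3 knockout. RN7SK had 11676, 12047 and 12787 CPM in wild type, 15062, 15250 and 14762 in the AGO1, 19017, 19576 and 20202 in the AGO2, 27761, 33664 and 23631 in the AGO1/2 and 19040, 20505 and 21667 in the AGO1/2/3 knockout. The AGO1/2 libraries were the highest and the most spread. RN7SK rose 1.61-fold in the AGO2 (log2 0.69 ± 0.099 SE, edgeR adjusted p = 0.000282), 2.33-fold in the AGO1/2 (log2 1.22 ± 0.10 SE, edgeR adjusted p = 2.28e-07) and 1.68-fold in the AGO1/2/3 knockout (log2 0.75 ± 0.099 SE, edgeR adjusted p = 3.55e-05). The AGO1 difference was 0.30 (edgeR adjusted p = 0.0577) although its libraries did not overlap wild type. In nuclei RN7SK had 7025, 8215 and 7853 CPM in wild type, 5958, 7306 and 8175 in the AGO1, 8320, 9455 and 10781 in the AGO2, 7957, 7049 and 9163 in the AGO1/2 and 10621, 11410 and 10267 in the AGO1/2/3 knockout. The AGO1/2/3 knockout was called (log2 0.48 ± 0.12 SE, edgeR adjusted p = 0.00341), and there limma on log2(TPM + 1) gave 0.25 (adjusted p = 0.367). The log2 differences of the other lines were -0.11 (95% interval -0.37 to 0.16, intervals from the edgeR fit and not adjusted for the number of genes), 0.31 (0.044 to 0.57) and 0.066 (-0.20 to 0.33). The AGO2 value passed under DESeq2 (0.31, adjusted p = 0.0322), without a filter on low counts (0.35, edgeR adjusted p = 0.00482), and without the AGO2 library of passage 8 (0.40) or the wild-type library of passage 28 or 29 (0.38 and 0.34). The effect of the AGO1/2 knockout differed between nuclei and cytoplasm by -1.23 on the log2 scale (edgeR adjusted p = 2.15e-06). In the same cytoplasmic libraries 11 of 13 mitochondrial mRNAs were higher (median log2 0.78), and the part of this in the 7SK change was not tested.

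Nuclear RMRP rose in the AGO1 knockout and fell in the AGO1/2 and AGO1/2/3 knockouts. It stood at 20397, 19857 and 26721 CPM in wild type, 26471, 32847 and 37427 in the AGO1, 22796, 23019 and 27023 in the AGO2, 10209, 9350 and 12202 in the AGO1/2 and 16960, 17552 and 17145 in the AGO1/2/3 knockout. The wild-type library of passage 29 was above the others of its group and just above the lowest AGO1 library, while every AGO1/2 and AGO1/2/3 library lay below wild type. The AGO1 rise was 1.44-fold (log2 0.53 ± 0.14 SE, edgeR adjusted p = 0.00892), the AGO1/2 fall 2.11-fold (log2 -1.08 ± 0.14 SE, edgeR adjusted p = 5.82e-06) and the AGO1/2/3 fall 1.30-fold (log2 -0.37 ± 0.14 SE, edgeR adjusted p = 0.0279). The AGO2 difference was 0.12 with a 95% interval of -0.17 to 0.41, and limma on log2(TPM + 1) gave it as -0.12. The AGO1/2/3 call was lost without the wild-type library of passage 29 (-0.20, edgeR adjusted p = 0.164), and without any 1 of its own libraries of passages 11, 12 and 14 (-0.36, -0.38 and -0.37, edgeR adjusted p = 0.0705, 0.0564 and 0.0683). Limma on log2(TPM + 1) called neither the AGO1 (0.31, adjusted p = 0.525) nor the AGO1/2/3 difference (-0.61, adjusted p = 0.148), and the fit of wild type with the AGO1 knockout alone gave an edgeR adjusted p of 0.0572 for the rise.

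Cytoplasmic RMRP had 1736, 1726 and 2356 CPM in wild type, 2055, 2079 and 2108 in the AGO1, 1897, 1994 and 2002 in the AGO2, 1201, 1316 and 1227 in the AGO1/2 and 1445, 1189 and 1345 in the AGO1/2/3 knockout. The last 2 lines were below every wild-type library. RMRP fell by 0.64 on the log2 scale in the AGO1/2 (SE 0.10, edgeR adjusted p = 0.000157) and by 0.55 in the AGO1/2/3 knockout (SE 0.10, edgeR adjusted p = 0.000794). The AGO1 and AGO2 differences were 0.10 (95% interval -0.12 to 0.32) and 0.019 (-0.20 to 0.24). The AGO1/2 effect on RMRP was -0.52 in nuclei relative to cytoplasm (edgeR adjusted p = 0.0203). That call was lost without the cytoplasmic wild-type library of passage 27 or 28 or the nuclear AGO1/2 library of passage 10 (-0.44 each) or the nuclear wild-type library of passage 29 (-0.39), and limma on log2(TPM + 1) gave -0.049 with an adjusted p of 0.88.

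RPPH1 rose in nuclei of all 4 edited lines, also where RMRP fell. It had 435, 451 and 455 CPM in wild-type nuclei, 536, 593 and 621 in the AGO1, 666, 714 and 721 in the AGO2, 658, 665 and 734 in the AGO1/2 and 869, 887 and 845 in the AGO1/2/3 knockout. Wild type was below every edited line, and only the AGO2 and AGO1/2 knockouts overlapped as neighbours in level. The rise was 1.30-fold (log2 0.38 ± 0.065 SE, edgeR adjusted p = 0.000554), 1.57-fold (log2 0.65 ± 0.065 SE, edgeR adjusted p = 4.28e-06), 1.53-fold (log2 0.62 ± 0.065 SE, edgeR adjusted p = 7.83e-07) and 1.94-fold (log2 0.96 ± 0.066 SE, edgeR adjusted p = 1.33e-08) in the AGO1, AGO2, AGO1/2 and the AGO1/2/3 knockouts. The AGO1 rise was not called by limma on log2(TPM + 1) (0.16, adjusted p = 0.225). Cytoplasmic RPPH1 had 4406, 5100 and 5614 CPM in wild type, 6048, 5497 and 5172 in the AGO1, 6599, 5977 and 6130 in the AGO2, 7233, 7953 and 6855 in the AGO1/2 and 6845, 5838 and 6341 in the AGO1/2/3 knockout. It rose 1.46-fold in the AGO1/2 knockout (log2 0.54 ± 0.095 SE, edgeR adjusted p = 0.000261), 1.26-fold in the AGO1/2/3 (log2 0.33 ± 0.095 SE, edgeR adjusted p = 0.0122) and 1.24-fold in the AGO2 knockout (log2 0.31 ± 0.095 SE, edgeR adjusted p = 0.04). The AGO1 difference was 0.14 (95% interval -0.058 to 0.35). The AGO2 call was lost without any 1 of the AGO2 libraries of passages 8, 9 and 10 (0.27, 0.34 and 0.32) or the wild-type libraries of passages 27 and 28 (0.22 and 0.32), and the AGO1/2/3 call without the wild-type library of passage 27 (0.24, edgeR adjusted p = 0.0571). Limma on log2(TPM + 1) called none of the cytoplasmic RPPH1 differences (0.091, 0.14 and 0.088 in the 3 lines with an edgeR call). The effect of the AGO1/2/3 knockout was larger in nuclei by 0.54 (edgeR adjusted p = 0.00131).

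TERC rose in nuclei of the single knockouts and fell in the AGO1/2 knockout. It had 65.6, 76.7 and 94.2 CPM in wild type, 84.8, 108 and 127 in the AGO1, 119, 118 and 130 in the AGO2, 47.8, 47.0 and 52.7 in the AGO1/2 and 66.7, 81.3 and 74.2 in the AGO1/2/3 knockout. The AGO2 and AGO1/2 libraries stood apart from wild type in opposite directions, and the AGO1 and AGO1/2/3 libraries overlapped it. The differences were 1.35-fold up in the AGO1 (log2 0.44 ± 0.14 SE, edgeR adjusted p = 0.025), 1.55-fold up in the AGO2 (log2 0.64 ± 0.14 SE, edgeR adjusted p = 0.00189) and 1.60-fold down in the AGO1/2 knockout (log2 -0.68 ± 0.14 SE, edgeR adjusted p = 0.000454). For the AGO1/2/3 knockout the value was -0.089 (95% interval -0.38 to 0.20), while limma on log2(TPM + 1) called it lower (-0.29, adjusted p = 0.0267). The AGO1 call was lost without the AGO1 library of passage 7 or 8 (0.43 and 0.30) or the wild-type library of passage 27 or 28 (0.34 and 0.43), on log2(TPM + 1) with limma (0.21, adjusted p = 0.136) and in the fit of those groups alone (0.46, edgeR adjusted p = 0.093). Cytoplasmic TERC was low, at 12.8, 9.92 and 13.9 CPM in wild type, 14.6, 15.1 and 13.4 in the AGO1, 13.6, 13.8 and 13.7 in the AGO2, 9.91, 9.53 and 8.87 in the AGO1/2 and 10.4, 8.63 and 8.74 in the AGO1/2/3 knockout. It fell in the AGO1/2 (log2 -0.37 ± 0.11 SE, edgeR adjusted p = 0.0124) and AGO1/2/3 knockouts (log2 -0.40 ± 0.11 SE, edgeR adjusted p = 0.0108), and the AGO1 and AGO2 differences were 0.23 and 0.16 (95% intervals -0.0028 to 0.47 and -0.073 to 0.40). The AGO1/2 call was lost without the wild-type library of passage 29 (-0.27, edgeR adjusted p = 0.0562), and both calls were lost in fits of the groups compared alone (-0.38, edgeR adjusted p = 0.0616, and -0.41, edgeR adjusted p = 0.0649). With the Telomerase-vert reads added, an alternative chosen after seeing the data, the AGO2 difference was called (0.33, edgeR adjusted p = 0.0136).

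The Y RNAs rose most in the cytoplasm of the AGO1/2 knockout. RNY1 had 21.6, 22.7 and 12.9 CPM in wild type, 28.7, 22.3 and 18.3 in the AGO1, 28.0, 30.3 and 30.2 in the AGO2, 50.0, 45.9 and 40.0 in the AGO1/2 and 32.6, 34.7 and 28.3 in the AGO1/2/3 knockout. RNY3 had 8.62, 11.5 and 6.15 CPM in wild type, 9.85, 7.51 and 6.56 in the AGO1, 10.7, 14.1 and 13.1 in the AGO2, 27.7, 22.7 and 20.9 in the AGO1/2 and 13.9, 17.1 and 12.8 in the AGO1/2/3 knockout. For both, the AGO1/2 libraries lay above all others and the wild-type library of passage 29 was the lowest of its group. RNY1 rose 1.55-fold in the AGO2 (log2 0.63 ± 0.19 SE, edgeR adjusted p = 0.0332), 2.38-fold in the AGO1/2 (log2 1.25 ± 0.19 SE, edgeR adjusted p = 7.11e-05) and 1.67-fold in the AGO1/2/3 knockout (log2 0.74 ± 0.19 SE, edgeR adjusted p = 0.00564). RNY3 rose 2.72-fold in the AGO1/2 (log2 1.44 ± 0.21 SE, edgeR adjusted p = 4.71e-05) and 1.67-fold in the AGO1/2/3 knockout (log2 0.74 ± 0.21 SE, edgeR adjusted p = 0.0107). The values not called were 0.53 for RNY3 in the AGO2 knockout and 0.28 and -0.13 for RNY1 and RNY3 in the AGO1 knockout. The AGO2 call of RNY1 was lost without any 1 AGO2 library (passages 8, 9 and 10, 0.67, 0.61 and 0.61) or the wild-type library of passage 29 (0.41), and the AGO1/2/3 call of RNY3 without the AGO1/2/3 library of passage 12 (0.61, edgeR adjusted p = 0.0501). On log2(TPM + 1), limma called both genes in the AGO1/2 knockout only, with 0.44 and 0.52 for RNY1 in the AGO2 and AGO1/2/3 knockouts and 0.51 for RNY3 in the AGO1/2/3 knockout.

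Nuclear Y RNA was scarce, at 3.77, 3.30 and 1.66 CPM of RNY1 and 2.29, 2.13 and 1.53 CPM of RNY3 in wild type. In the AGO2 knockout RNY1 had 5.11, 4.57 and 4.78 and RNY3 4.47, 3.86 and 3.02 CPM, and both were above every wild-type library. RNY1 rose 1.64-fold (log2 0.71 ± 0.24 SE, edgeR adjusted p = 0.0258) and RNY3 1.90-fold (log2 0.92 ± 0.19 SE, edgeR adjusted p = 0.00117) in that line, and RNY3 also rose 1.66-fold in the AGO1/2/3 knockout (log2 0.73 ± 0.19 SE, edgeR adjusted p = 0.00337), with 3.31, 3.79 and 2.83 CPM. The remaining nuclear values were not called by edgeR. For the AGO1/2 knockout they were 0.075 for RNY1 (95% interval -0.43 to 0.58) and 0.33 for RNY3 (-0.070 to 0.73), and the latter passed with counts scaled from TPM (0.53, edgeR adjusted p = 0.0133). RNY1 in the AGO1/2/3 knockout passed without a filter on low counts (0.52, edgeR adjusted p = 0.0367) and without the wild-type library of passage 27 (0.73, edgeR adjusted p = 0.0283). The call of RNY1 in the AGO2 knockout was lost without the AGO2 library of passage 8 or 10 (0.67 and 0.72) or the wild-type library of passage 29 (0.47), with limma on log2(TPM + 1) (0.56, adjusted p = 0.14) and in the fit of those groups alone (0.72, edgeR adjusted p = 0.0683). The nuclear AGO1/2 effect was below the cytoplasmic one by the interaction test, with -1.26 for RNY1 (edgeR adjusted p = 0.00348) and -1.19 for RNY3 (edgeR adjusted p = 0.00363). On log2(TPM + 1), limma gave -0.63 (adjusted p = 0.161) and -0.62 (adjusted p = 0.0961).

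VTRNA1-1 was at the limit of detection. It had 4, 4 and 3 reads in the cytoplasmic wild-type libraries, 11, 11 and 8 in the AGO1, 6, 11 and 7 in the AGO2, 9, 14 and 23 in the AGO1/2 and 9, 8 and 6 in the AGO1/2/3 knockout. In CPM it was 0.0974, 0.0898 and 0.0688 in wild type and 0.128, 0.206 and 0.301 in the AGO1/2 knockout, the only line called (log2 1.30 ± 0.42 SE, edgeR adjusted p = 0.0186). The gene passed the filter on low counts through its higher groups, DESeq2 did not call it (1.32, adjusted p = 0.0714), and edgeR did not without the AGO1/2 library of passage 11 (0.95) or the wild-type library of passage 29 (1.17). In nuclear RNA 10 of 15 libraries had 0 reads, which allows up to 0.0555 to 0.147 CPM by depth (3 reads of the library total, counting error only), and the other 5 had 1 or 2.

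Proteins that work with these RNAs were read from lists of the particles and of the transcription machinery. Of the 8 signal recognition particle proteins and receptor subunits, 4, 5, 7 and 7 mRNAs were higher and 0 lower in nuclear RNA of the AGO1, AGO2, AGO1/2 and the AGO1/2/3 knockouts. Among all genes tested there 14.3%, 20.2%, 32.9% and 29.1% were higher and 15.6%, 19.9%, 34.7% and 29.5% lower, which is the background of each nuclear list count below. The list's median log2 difference was 0.22, 0.22, 0.66 and 0.47, where the median of all genes was -0.033, -0.017, -0.057 and -0.032, and that of the vault list 0.30, 0.27, 0.67 and 0.66. Every other protein list also had a positive median in nuclei of each line. It was 0.32, 0.17, 0.28 and 0.13 for RNase P and RNase MRP proteins and 0.20, 0.10, 0.11 and 0.062 for RNA polymerase III subunits. A positive nuclear median was thus not particular to the signal recognition particle list. In that list SRPRA, the receptor subunit, was the highest in 3 of these lines (0.68, 1.13 and 1.05 in the AGO2, AGO1/2 and AGO1/2/3 knockouts). In the cytoplasm, where 4.28%, 7.07%, 23.9% and 18.6% of all genes were higher and 8.13%, 9.0%, 25.4% and 20.0% lower, 2, 1, 2 and 1 were higher and 0, 0, 2 and 0 lower, with SRP54 at -0.60 in the AGO1/2 knockout. Of the 7 genes of the 7SK particle and P-TEFb, 2, 3, 3 and 4 were higher and 0, 0, 1 and 1 lower in nuclei. MEPCE, which caps 7SK RNA, was higher in all 4 lines (0.54, 0.91, 1.02 and 0.87), and CCNT2, a cyclin of P-TEFb, was lower in the last 2 (-0.36 and -0.28). In the cytoplasm of the AGO1/2 knockout 1 was higher (MEPCE, 0.37) and 5 were lower, with CCNT1 at -0.67, and in the AGO1, AGO2 and AGO1/2/3 knockouts 0, 1 and 1 were higher and 0, 1 and 1 lower.

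RMRP and RPPH1 share protein partners, so 1 list served both. Of its 11 genes 6, 4, 6 and 3 were higher and 0, 0, 1 and 3 lower in nuclei of the AGO1, AGO2, AGO1/2 and the AGO1/2/3 knockouts. POP1, the largest shared protein, was at 0.44 in the AGO1 knockout, at 0.20 and not called in the AGO2 knockout, and at -0.83 and -0.82 in the AGO1/2 and AGO1/2/3 knockouts. In the cytoplasm POP1 was at -1.73 and -1.38 in those 2 lines, and the list had 1, 2, 0 and 1 higher and 0, 0, 2 and 3 lower. In nuclei of the AGO1/2 knockout POP1 went against most called genes of its list, of which 6 were higher and 1 lower. Of the 8 telomerase proteins 5, 4, 5 and 3 were higher and 1, 0, 2 and 3 lower in nuclei. TERT, the catalytic subunit, was lower in the AGO1, AGO1/2 and AGO1/2/3 knockouts (-0.79, -0.81 and -0.63), and NOP10, of the particle that stabilises TERC, was higher in them (0.52, 0.68 and 0.43). In the cytoplasm 1, 1, 0 and 0 were higher and 1, 0, 5 and 4 lower. Among 3 vault proteins 2 were higher in each nuclear comparison, and MVP, the main protein of the vault, was at 0.62, 0.46, 1.60 and 1.52. MVP was also higher in the cytoplasm of the AGO1/2 and AGO1/2/3 knockouts (0.52 and 0.92), where it was the only called gene of the list, and 0 were called in the single knockouts. RO60, which binds Y RNA, was higher in nuclei (0.95 and 0.88) and cytoplasm (0.49 and 0.63) of the AGO1/2 and AGO1/2/3 knockouts, and SSB, the La protein, was higher in AGO1 knockout nuclei (0.31) and lower in the cytoplasm of the AGO1/2 and AGO1/2/3 knockouts (-0.84 and -0.56).

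RNA polymerase III makes 8 of the 9 RNAs. Of 11 mRNAs of its subunits 3, 1, 4 and 2 were higher and 0, 0, 3 and 3 lower in nuclei, and 0, 0, 2 and 1 higher and 0, 0, 4 and 4 lower in the cytoplasm. The alternative subunits POLR3G and POLR3GL differed in direction, with POLR3G at -0.98 and -0.94 and POLR3GL at 0.87 and 0.74 in nuclei of the AGO1/2 and AGO1/2/3 knockouts. Of 18 initiation factors and repressor genes 8, 8, 9 and 6 were higher and 1, 3, 3 and 3 lower in nuclei, and 1, 2, 5 and 2 higher and 0, 0, 8 and 7 lower in the cytoplasm. MAF1, the repressor, was at 0.58 in AGO2 knockout nuclei, and POU2F1, an activator of these promoters, was at -0.21, -0.40, -0.75 and -0.77 in nuclei of the 4 lines. Of 30 RNAs on a list of spliceosomal, small nucleolar and Cajal body RNAs and further relatives, 16 were tested in nuclear RNA, of which 2, 3, 1 and 1 were higher and 7, 8, 14 and 8 lower in the AGO1, AGO2, AGO1/2 and the AGO1/2/3 knockouts, with medians of -0.47, -0.36, -1.61 and -0.59. RN7SL3, the third 7SL gene, was the one highest in the AGO2, AGO1/2 and AGO1/2/3 knockouts (0.89, 0.46 and 0.56), and RNU5D-1, a U5 RNA, the lowest in the AGO1/2 knockout (-2.87). In the cytoplasm 1, 3, 3 and 1 of 15 were higher and 3, 3, 4 and 6 lower, with RNY4, a further Y RNA, at 2.15, 2.35, 2.97 and 2.05. The reads behind the RNY4 values are not given here. In wild-type cells 14 of 16 RNAs of the list were higher in nuclear than in cytoplasmic RNA and 2 lower, with a median log2 ratio of 3.10. No list was tested as a set.

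The genes whose level over the libraries was most like each member were sought among genes tested in both fractions, by the mean Pearson r of log2 CPM over the 15 nuclear and over the 15 cytoplasmic libraries. These r describe 5 genotypes with 3 libraries each that share lines and depth, and no p is given. RN7SL1 was most like ALKBH7 (r of 0.934 in nuclear and 0.934 in cytoplasmic RNA), TSPO (0.950 and 0.916) and IL18 (0.969 and 0.897), and RN7SL2 most like PDK2 (0.956 and 0.935), CHST7 (0.956 and 0.914) and IL18 (0.944 and 0.910). RN7SK was most like DENND2D (0.792 and 0.916), GTF2IRD2 (0.812 and 0.846) and ENSG00000124593 (0.846 and 0.797). RPPH1 was most like ENSG00000259001 (0.980 and 0.902), the gene that overlaps it, followed by ADRA2C (0.821 and 0.927) and HIGD2A (0.849 and 0.884). RMRP was most like KCNH3 (0.937 and 0.968), ENSG00000261135 (0.941 and 0.960) and SNHG8 (0.977 and 0.888), and TERC most like PROM1 (0.930 and 0.881), ARRB2 (0.880 and 0.917) and again ENSG00000261135 (0.866 and 0.923). RNY1 was most like CLCN2 (0.882 and 0.800), ZDHHC8 (0.854 and 0.818) and SPHK2 (0.838 and 0.817), and RNY3 most like LINC00324 (0.809 and 0.917), HCN3 (0.846 and 0.817) and DGCR6L (0.749 and 0.888).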

How the data were processed

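RNA of nuclear and cytoplasmic fractions was measured in 30 RNA-seq libraries, in 10 groups of 3. Cells were lysed in hypotonic buffer with NP-40, and the supernatant was taken as cytoplasm. The edited lines were bought as made by CRISPR from HCT116. Ribosomal RNA was depleted and stranded paired-end libraries were made, a protocol not built for RNAs of these lengths. The authors aligned reads with STAR 2.5.3a and quantified transcripts with Salmon 0.11.0 (submitters' processing notes, build hg38), and deposited 1 table per library with estimated counts per transcript. The same deposited tables give TPM, set by the authors from effective lengths. The 8 eCLIP samples were not analysed here.

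Of 200401 transcripts, 196040 were matched by identifier to GENCODE release 44 and summed to 58425 genes, and the 4361 unmatched were left out of gene tests. Estimated counts were rounded and tested with edgeR 4.0.16 (quasi-likelihood, TMM, filterByExpr with a minimum count of 10, Benjamini-Hochberg adjusted p of 0.05), with the 15 libraries of a fraction in each knockout fit and all 30 in the fraction and interaction fits. Alternatives were DESeq2 1.42.0, limma 3.58.1 on log2(TPM + 1) and log2(TPM + 0.1), DESeq2-type size factors (RLE), no filter or a mean count of 50, counts scaled from TPM, fits of the groups compared alone, sums with family copies or overlapping records, and leaving out each library. The sums with overlapping records, and 4 of the alternatives for the interaction, were chosen after seeing the data. All 9 members were named. Lists were given by counts, with the called genes of the largest and smallest change as examples and some called genes besides, and the 3 most alike genes of each member by correlation. Members and lists were chosen with earlier results of these data known.

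In simulated counts of the same depth the fits recovered 86 of 100 genes changed 2-fold and 69 of 100 changed 1.5-fold in nuclear knockout comparisons over 18919 genes, with 6 false calls. The numbers were 83, 49 and 3 in cytoplasmic knockout comparisons over 17605 genes. For the fraction comparison over 20104 genes they were 86, 61 and 7, and for the interaction over the same genes 61, 32 and 4. The study calls the libraries of a group biological replicates, and each is another passage of 1 line. The p-values of the main fits thus rest on the spread between passages within lines, with an estimate shared by the 5 genotypes of a fit. They do not measure the spread between lines of a genotype. With 3 against 3 libraries an exact permutation test cannot go below a p of 0.1, so tests rest on the fit over all genes. Floors of reads cover counting error only, while 95% intervals of log2 differences come from the edgeR fit, with its degrees of freedom, and hold the spread between libraries. Nuclear and cytoplasmic libraries share passage numbers within a line, by the labels. The correlation of their deviations from the group means was 0.354, 0.354 and 0.649 in the 3 wild-type pairs and 0.004 to 0.499 in the edited lines. Some sequences of these RNAs are not reported here.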

Additional observations from a re-analysis of the deposited data

Results flagged for a closer look

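For 11 values the effect of a knockout differed between nuclei and cytoplasm by the interaction test of edgeR (Benjamini-Hochberg adjusted p below 0.05), which is why they are listed. The values are the nuclear log2 effect minus the cytoplasmic one. In the AGO2 knockout they were 0.54 for RN7SL1 and 0.45 for RN7SL2. For the AGO1/2 knockout they were 0.53 for RN7SL1, 0.48 for RN7SL2, -1.23 for RN7SK, -0.52 for RMRP, -1.26 for RNY1 and -1.19 for RNY3. In the AGO1/2/3 knockout they were 0.67 for RN7SL1, 0.58 for RN7SL2 and 0.54 for RPPH1. The share of all genes called was 5.76%, 36.5% and 22.7% in the same lines, and all comparisons use the same wild-type libraries. Of the 11 calls, limma lost 7 on log2(TPM + 1) and 10 on log2(TPM + 0.1), and fits of the groups compared alone lost 3.

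Within the AGO1/2 knockout, the 7SL genes and the other 4 RNAs had opposite signs. GAPDH mRNA had an interaction value of 1.0 there and MALAT1 one of -1.71, and their part in the members' values was not tested.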

How the results depend on the processing

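Of 119 log2 values of members (68 between knockout and wild type, 40 between the fractions and the 11 called interactions, with 21 uncalled interactions not counted), 95 were called and 0 of these changed sign under any alternative. Called values lie away from 0 and the same libraries were refitted, so a kept sign says little. Limma on log2(TPM + 1) lost 22 knockout calls and 3 calls between the fractions. Fits of the groups compared alone lost 10 knockout calls. The 11 values that did change sign were all uncalled. Nuclear RNY3 in the AGO1 knockout was 0.021 without a filter, 0.036 with counts scaled from TPM and 0.011 in the fit of those groups alone. RMRP in the AGO2 knockout was -0.12 in nuclei and -0.19 in the cytoplasm on both TPM scales, cytoplasmic RMRP in the AGO1 and TERC in the AGO2 knockout were -0.022 on both and -0.048 and -0.049, and nuclear RN7SK and RNY1 in the AGO1/2 knockout were -0.038 and -0.030 with a mean count of 50. Over fits without 1 library each, the values ran from -0.05815 to 0.18 for cytoplasmic RMRP and AGO2, from -0.33 to 0.11 for cytoplasmic RNY3 and AGO1, and from -0.17 to 0.083 for nuclear TERC and AGO1/2/3. In AGO1 knockout nuclei they ran from -0.21 to 0.012 for RN7SK, from -0.032 to 0.48 for RNY1 and from -0.16 to 0.12 for RNY3, and in AGO1/2 knockout nuclei from -0.028 to 0.16 for RN7SK and from -0.17 to 0.35 for RNY1.

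The number of members called moved most on the TPM scales, and the cause was not tested. In nuclei limma called 0 (AGO1) and 3 (AGO2) on log2(TPM + 1) and on log2(TPM + 0.1), and 3 on the latter for AGO1/2/3. On log2(TPM + 0.1) it called 5883, 6783 and 10063 of all 18919 genes in these lines. In the cytoplasm it called 1 (AGO2) and 3 (AGO1/2/3) on both, with 4983 and 7987 of all 17605 genes on log2(TPM + 0.1). For the interaction it called 1 and 0 (AGO2), 4 and 1 (AGO1/2) and 1 on both (AGO1/2/3). Of all 20104 genes it called 2582 and 1325 (AGO2) and 11017 and 9882 (AGO1/2). Fits of the groups compared alone, with fewer libraries, called 2 in AGO1 nuclei, 1 and 2 in AGO1 and AGO2 cytoplasm and 0 for the AGO2 interaction. Over all genes these fits called 3747 of 17580, 832 of 15986, 1348 of 15938 and 340 of 18685 in that order. Where edgeR called 0 in AGO1 cytoplasm, DESeq2 and counts scaled from TPM called 3, and RLE factors or no filter called 2. With family copies added the AGO2 interaction called 1. Without 1 library each, 3 to 5, 5 to 7, 5 to 5 and 5 to 7 members were called in nuclei of the AGO1, AGO2, AGO1/2 and the AGO1/2/3 knockouts, 0 to 3, 2 to 4, 7 to 9 and 7 to 8 in the cytoplasm, 8 between the fractions, and 0, 2 to 3, 5 to 7 and 3 for the interaction. The replicate block of passage left 8 called between the fractions in all 5 genotypes and gave 0, 3, 7 and 3 for the interaction, and changed no other call than those of RN7SK and TERC given above. It called 634 of 18537, 2356 of 18685 and 6251 of 18916 genes for the AGO1, AGO2 and AGO1/2/3 interactions. Where no count over all genes stands beside them, these member counts are not a result about the members. The knockout comparisons within a fraction share no passage numbers with wild type, so no block could be fitted there.

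Over all genes, log2(TPM + 1) shifted the median by -0.07 to -0.20 in knockout comparisons and by 0.24 to 0.48 between the fractions, where the TMM medians were within -0.06 and 0.09. The share of higher among called genes between the fractions was 75.2%, 75.4%, 79.3%, 93.6% and 84.7% in wild type and the AGO1, AGO2, AGO1/2 and the AGO1/2/3 knockouts, against 51.5%, 53.7%, 54.2%, 53.9% and 51.4% with edgeR. Cytoplasmic AGO2 calls went from 2828 to 5090 genes, and to 1348 in the fit of those groups alone. Cytoplasmic AGO1 calls went from 2185 to 832 and nuclear AGO1 calls from 5651 to 3747 in such fits. AGO1 interaction calls ranged from 31 to 1488 genes and AGO2 ones from 340 to 2582, around 133 and 1158. VTRNA1-1 is limited by depth, with at most 23 reads in a library.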

Other observations

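RNY4, a Y RNA outside the 9 members, had the highest cytoplasmic log2 differences among the other small structural RNAs, at 2.15, 2.35, 2.97 and 2.05 in the AGO1, AGO2, AGO1/2 and the AGO1/2/3 knockouts (edgeR, each called). Its reads in each library and its values in the alternative fits are not given here, and wild-type libraries were the shallowest. RNY1 and RNY3 were not called in the cytoplasm of the AGO1 knockout. Between the fractions of wild-type cells, SNORD118 (U8) was at 8.12 and BCYRN1 (BC200) at -1.84 on the log2 scale of nuclear to cytoplasmic RNA.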
